A study of Mus musculus with 122 samples.

Results

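Doxycycline (Dox) alone in the CTCF line was examined here by RNA-seq, as 3 libraries of Dox-treated cells (D) against 2 of untreated cells (U), which are 5 of the 38 RNA libraries of the series. The libraries were chosen by their labels alone. The cells were mouse embryonic stem cells of the E14Tg2a line grown without feeder cells in serum with LIF and the inhibitors CHIR99021 and PD0325901. All of them, U included, carried Ctcf fused to an auxin-inducible degron and eGFP on both alleles, the plant F-box protein Tir1 at Rosa26, and a FLAG-tagged, mRuby2-tagged CTCF transgene at Tigre that is driven by TetO-3G and rtTA3G and switched on by Dox. U received nothing, and D received 1 µg/ml Dox, for 24 h by the sample labels and 2 days by the treatment protocol. No indole-3-acetic acid (IAA, the auxin that triggers the degron) was given, so degradation of endogenous CTCF was not triggered. Each line was a homozygous clone, so line and clone cannot be told apart, and every D library received both the drug and the transgene's protein, so these cannot be told apart within the line either. Nothing in the labels says that the libraries came from separate cultures, and p-values measure the spread between these samples only.

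CTCF is a zinc-finger protein that binds DNA through a conserved core motif, blocks loop extrusion by cohesin and so sets the borders of chromatin domains. It also sits at many promoters. Embryonic stem cells need it to proliferate. Doxycycline is a tetracycline antibiotic and can inhibit ribosomes of mitochondria. The comparison asks what extra CTCF and the drug do to cells that still hold their own CTCF.

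The 5 libraries held between 22920573 and 23976744 reads in genes. Values below are normalised read counts, that is read counts divided by a size factor of each library. Pluripotency regulators were expressed in all 5 libraries (Nanog at 38735 and 35666 in U and at 38443, 36126 and 41285 in D), and their summed level was 1.02% to 1.08% of each library. The libraries of U correlated with r = 0.9875 across genes on the log2 scale, and those of D with r between 0.987 and 0.989. U replicate 2 stood apart: pairs of U replicate 2 with D had r between 0.974 and 0.982, and pairs of U replicate 1 with D between 0.9825 and 0.9866.

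The change from U to D also moved with gene length. The median change from U to D was 0.35 on the log2 scale in the 1210 genes with up to 1 kb of exon and fell to -0.17 in the 4402 genes with over 6 kb. The gap between short and long genes, as the difference of their median deviations from the line mean, was -0.22 and -0.65 in U replicates 1 and 2 and 0.10, -0.07 and 0.28 in D replicates 1 to 3. With these samples the treatment and a difference between libraries in recovery by length cannot be told apart. The list counts below are therefore also given after a smooth trend on exon length and GC content was taken out of every library, in which case 7.38% of 16278 genes rose and 7.6% fell.

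**Figure D1:**
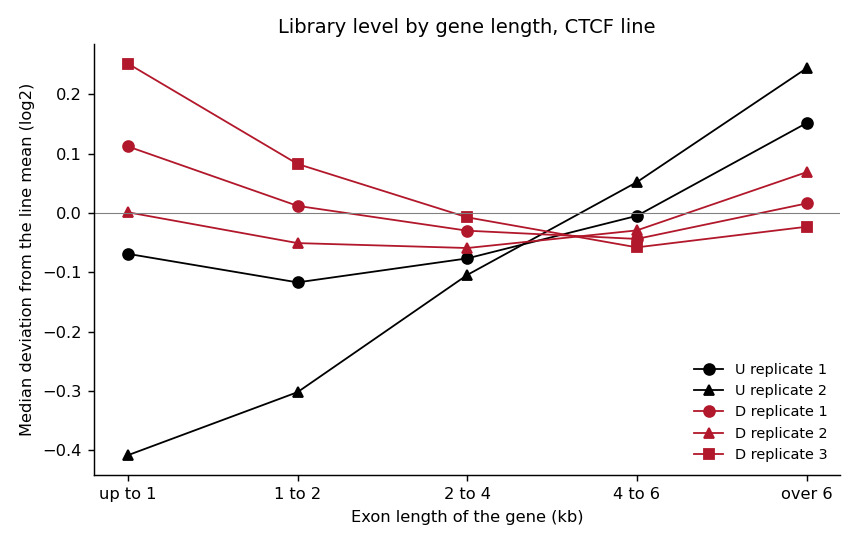
Median deviation of each library from the mean of the CTCF line (log2, vertical axis) for genes in 5 classes of exon length (kb, horizontal axis), with untreated libraries in black and Dox libraries in red. U replicate 2 runs from -0.41 in the shortest class to 0.24 in the longest, while D replicate 3 runs from 0.25 to -0.02.

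The Ctcf gene itself did not rise with Dox. Its normalised read count was 4712 and 4691 in U and 3845, 3849.9 and 3549.7 in D. Every D library lay below both U libraries, which was the case for 26.5% of all genes. The log2 change was -0.33 (SE 0.07, adjusted p = 0.00872 from limma), and -0.25 (adjusted p = 0.0126) with the length and GC trend removed. The counts do not separate the transgene from the endogenous gene. In the line with a transgene of its paralog CTCFL, Ctcfl was at 193, 225 and 206 in U and at 7764, 9398 and 7570 in D. In the CTCF line with IAA, Ctcf was at 4622, 4371 and 4231 without Dox and at 3910, 4137 and 4142 with it. Whether reads of the CTCF transgene were counted for Ctcf was not tested. Transgenic protein on chromatin was seen by FLAG ChIP-seq of D, in which 37167 sites were present in both replicates. In the CTCF line Ctcfl, whose product is a germline protein, was at 141 and 172 in U and at 85.3, 107 and 128 in D, without passing the test (adjusted p = 0.0737).

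Of 16705 genes tested, 36 were higher and 40 lower in D at an adjusted p under 0.01 and a log2 change above 1, which is 0.216% and 0.239% of the genes. These 76 genes are called below. At an adjusted p under 0.05 with no limit on size, 1160 genes were higher (6.94%) and 1731 lower (10.4%), and rose and fell are used below for genes past this second threshold. With the length and GC trend removed, 25 genes were called higher and 32 lower, of which 22 and 27 were among those called before. Leaving out U replicate 2 leaves a single U library, and the shares of all genes that rose or fell then are not given. Fewer members of the lists described below with that fit passed in it, and list medians are given for it. Without U replicate 2, 3 genes were called higher (Rapgef4, Tagln and Trim54) and 9 lower (Bnip3, Stc2, Zfp518b, Pga5, A2m, Lefty2, Atp12a, Adamts9 and Mobp), all of them also called with both U libraries. These 12 genes were called whichever of the 5 libraries was left out.

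**Figure D2:**
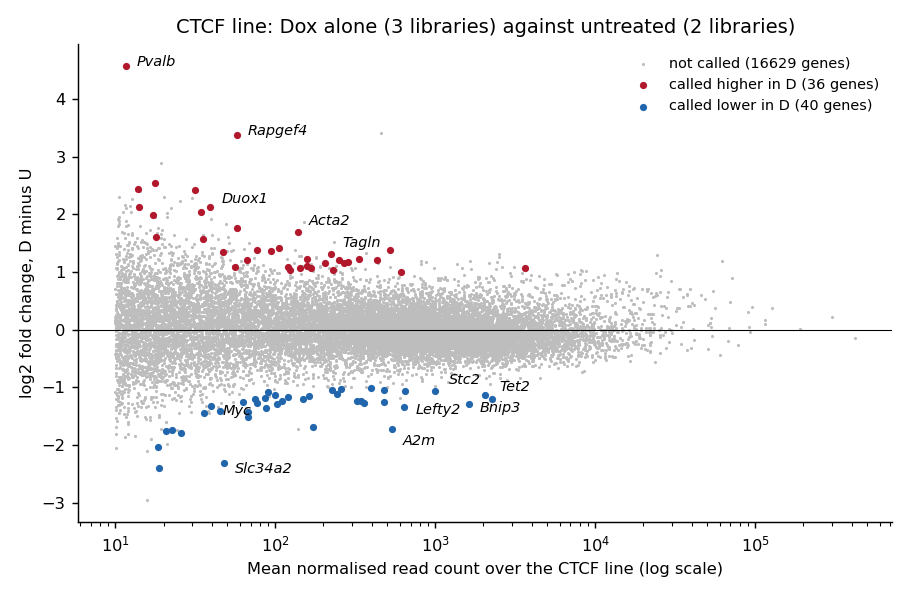
Log2 fold change from U to D (vertical axis) against the mean normalised read count over the CTCF line (horizontal axis, log scale) for every gene tested. The 36 genes called higher are in red and the 40 called lower in blue, and Pvalb and Rapgef4 lie at the top.

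Rapgef4, which encodes a cAMP-activated exchange factor for the small GTPase Rap, had the largest rise among called genes with reads in all 5 libraries. Its normalised read count was 13.8 and 16.6 in U and 172, 173 and 156 in D. The groups lay far apart, with a log2 change of 3.38 (SE 0.29, adjusted p = 5.02e-05), or 10.4-fold. Rapgef4 (ENSMUSG00000049044) lies at chr2:71981240-72257474 on the plus strand (GRCm38). A FLAG-CTCF site at chr2:72196978-72197478, inside the gene's span, was at -1572 bp from the nearest annotated start site, that is upstream. Its fold enrichment was 3.95 and 5.79 in the FLAG replicates, with a -log10 q of 4.75 and 16.7. The site did not hold the core of the CTCF motif as defined below. With endogenous CTCF degraded, Dox made little difference to Rapgef4 in the CTCF line. Rapgef4 was at 15.2 ± 4.47 (SD, n = 3) with IAA alone and 19.7 ± 2.05 (SD, n = 3) with IAA and Dox. In lines with another transgene this was not so throughout, as given below. The change without IAA exceeded that with IAA by 2.99 on the log2 scale (SE 0.39, adjusted p = 0.000272), a difference for which 2.74% of all genes were called. Rapgef4 was picked for its change from U to D, which enters this difference.

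Pvalb, a calcium buffer of muscle and neurons, was listed at 0 in both U libraries and at 26.3, 24.4 and 18.5 in D. Against a floor of 3 counts in each U library it was at least 7.09-fold higher. Other rises of genes with low counts were Hrh3, a histamine receptor (4.25 and 4.42 in U, 24.2, 39.3 and 28.2 in D), Il9r, the interleukin-9 receptor (5.32 and 8.84 in U, 34.7, 46.7 and 43.5 in D), and Hoxc6, a homeodomain factor of trunk patterning (2.13 and 2.21 in U, 12.6, 23.4 and 14.1 in D). Hoxc6 was called in none of the 5 fits without a library, and its adjusted p in edgeR was 0.0126. Duox1, a hydrogen peroxide producing oxidase, was at 13.8 and 19.9 in U and at 86.3, 72.2 and 70.6 in D (log2 change 2.13, SE 0.31, adjusted p = 0.0014). None of these genes had a D library within the range of U, but this was a condition for naming them. Over all genes, every D library lay above both U libraries in 21.9%.

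A group of actin and muscle genes was among the rises. Acta2, smooth muscle alpha-actin, was at 89.3 and 53.03 in U and at 247, 204 and 224 in D, a log2 change of 1.69 (SE 0.22, adjusted p = 0.000964). Acta1, skeletal alpha-actin, was at 37.2 and 15.5 in U and at 90.5, 74.4 and 88.0 in D. Tagln, the actin-binding protein transgelin, was at 140.4 and 129 in U and at 341, 324 and 341 in D, with a log2 change of 1.31 (SE 0.14, adjusted p = 0.000333). Trim54, a RING finger protein of the sarcomere, was at 31.9 and 38.7 in U and at 75.8, 79.7 and 97.8 in D. Its log2 change of 1.23 dropped to 0.94 with the length and GC trend removed. This group was put together after the values were seen.

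Of the 6 fibroblast markers tested, 5 rose, against 6.94% of all genes, and none fell. Besides Acta2 these were Thy1 (659 and 649.6 in U, 914, 988 and 1172 in D), Col1a1 (359 and 413 in U, 502, 543 and 524 in D), Col1a2 and Twist1. The whole marker list summed to 1570 and 1579 in U and to between 2227 and 2426 in D, while Lum, Dcn and S100a4 were listed at 0 in all 5 libraries. In bulk RNA, more cells of a type and more RNA per cell cannot be told apart, and the part of other cell types in the rise of Acta2 was not tested. With the trend removed 4 rose and the median fell from 0.67 to 0.50. Without U replicate 2 the median was 0.70.

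Slc34a2, a sodium-phosphate cotransporter, had one of the larger falls and was at 72.3 and 71.8 in U and at 11.6, 14.9 and 15.2 in D (log2 change -2.30, SE 0.32, adjusted p = 0.00127). A2m, the protease inhibitor alpha-2-macroglobulin, was at 961 and 1163 in U and at 263, 356 and 348 in D (log2 change -1.72, SE 0.14, adjusted p = 3.52e-05). Aire, a transcription factor best known from the thymus, was at 246 and 386 in U and at 104, 75.4 and 108 in D. Fold changes were similar for the low-count genes Thbd (thrombomodulin), Nnmt (nicotinamide N-methyltransferase) and Neurog1 (a proneural factor), with log2 changes of -1.79, -1.76 and -1.75. The 3 D libraries of each lay below both U libraries, which was a condition for naming them. None of these 3 genes was called once any 1 of the 5 libraries was left out. Myc, the growth-promoting transcription factor, was at 70.2 and 51.9 in U and at 24.2, 17 and 29.3 (log2 change -1.36, SE 0.25, adjusted p = 0.00522), and was called in 1 of the 5 fits without a library.

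**Figure D3:**
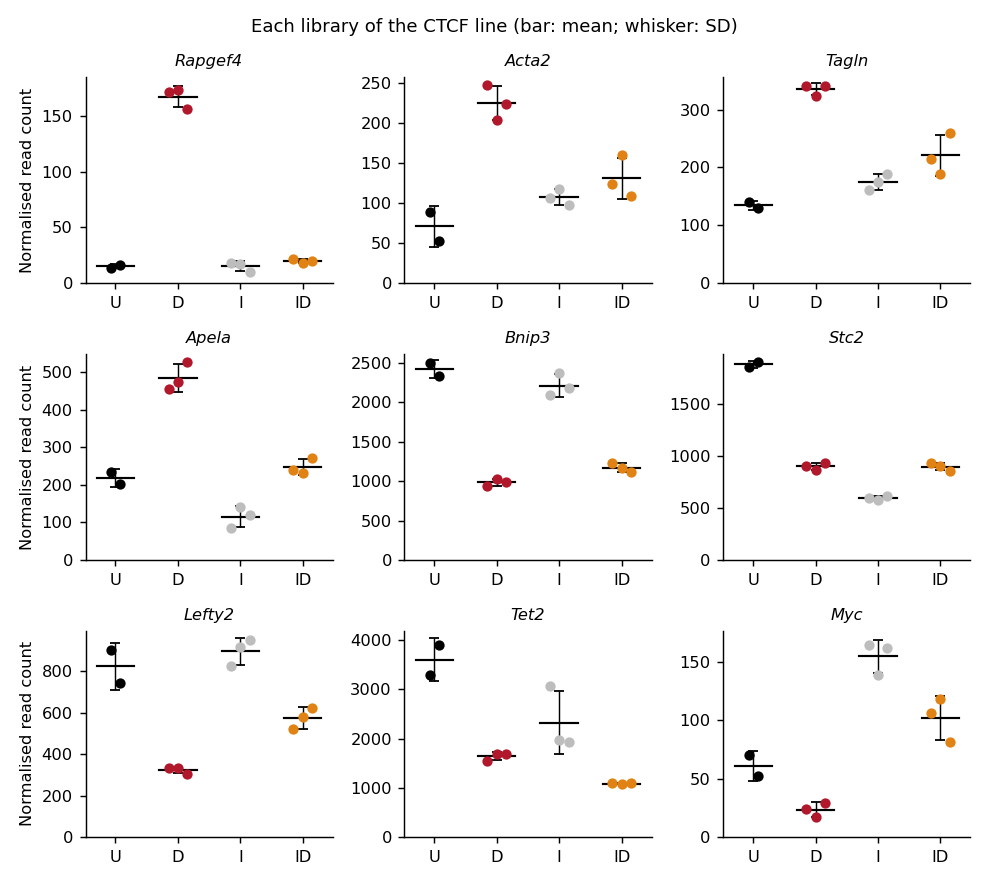
Normalised read count of 9 named genes in each library of the CTCF line (vertical axes from 0), with points for libraries, bars for means and whiskers for the SD. U is untreated, D is Dox, I is IAA and ID is IAA with Dox, and Rapgef4 stands out as high in D only while Bnip3 is low in both D and ID.

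Genes of glycolysis and the hypoxia response fell together. Of 32 members tested, 21 fell, against 10.4% of all genes, and none rose, with a median log2 change of -0.44 against -0.02 over all genes. In 22 members every D library lay below both U libraries, which was the case for 26.5% of all genes. Bnip3, a mitophagy receptor, was at 2495 and 2334 in U and at 941, 1022 and 982 in D (log2 change -1.30, SE 0.08, adjusted p = 5.52e-06), the smallest adjusted p of the genes named here. Slc16a3, which exports lactate, was at 2801 and 3087 in U and at 1501, 1479 and 1617 in D (log2 change -0.94). Slc2a1, the main glucose transporter of the plasma membrane, was at 13865 and 14213 in U and at 7860, 8288 and 9055 in D (log2 change -0.74), and Ldha, lactate dehydrogenase, was at 31225 and 29828 in U and at 20501, 20335 and 21525 in D (log2 change -0.55). The oxygen-sensing hydroxylases Egln1 and Egln3, the kinase Pdk1, the phosphofructokinases Pfkp and Pfkl, and Vegfa also fell. Gapdh and Eno1, by contrast, had log2 changes of 0.02 and 0.15 and did not pass the test. The members other than Bnip3 were picked for naming after their values were seen. The fall was as large with the length and GC trend removed (20 fell, median -0.45), and the median was -0.40 without U replicate 2.

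The hypoxia-inducible factors bind DNA at a short element with the letters ACGTG. In RefSeq promoters (GRCm38.p6, from 250 bases before to 50 after the start), 14 of the 18 members with an entry held these letters on either strand, against 25.3% of 9362 promoters of tested genes. Of these 14, 9 fell and none rose. In the whole list 21 of 32 fell, and over all genes 10.4% did. Whether members with the element changed more than the rest was not tested. Stretches of 4 of the 9 with the element that fell are shown, for genes of known roles in glucose use and mitophagy. Each is on the gene's strand with the element, or its reverse complement, in capitals. They lie at chr7:138909599-138909622 (Bnip3), chr11:120949044-120949067 (Slc16a3), chr4:119108700-119108723 (Slc2a1) and chrX:106186941-106186964 (Pgk1).
Bnip3: acgcgccgcACGTGccacacgctc
Slc16a3: gcgcgggggACGTGccgcgcgacg
Slc2a1: ccgccccggACGTGctccccaggc
Pgk1: tcgtgcaggACGTGacaaatggaa

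Of the amino acid and ATF4 stress response, 16 of 36 members fell and 3 rose, against 10.4% and 6.94% of all genes, with a median of -0.24. ATF4 is the transcription factor that switches on amino acid import and synthesis when cells are short of amino acids or when mitochondria are impaired. Stc2, a secreted glycoprotein, was at 1855 and 1902 in U and at 902, 868 and 932 in D (log2 change -1.06, SE 0.08, adjusted p = 1.87e-05). Vldlr, a lipoprotein receptor, was at 410.5 and 463 in U and at 183, 236 and 189 in D, and Aldh1l2, a mitochondrial enzyme of folate metabolism, at 265 and 294 in U and at 121, 132 and 121 in D. Trib3, Chac1 and Atf5, which are classical ATF4 targets, fell by 0.48, 0.46 and 0.55 on the log2 scale. Ddit3, which encodes the stress factor CHOP, went the other way and was at 738 and 573 in U and at 1169, 1124 and 1364 in D, as did Gdf15 and Pycr1. Atf4 itself had a log2 change of 0.05, and Asns and Psat1 had -0.21 and -0.01, none past the test. Of these, Stc2, Vldlr and Aldh1l2 were called, and the rest were named after their values were seen. With the trend removed, 17 members fell and 1 rose. Leaving out U replicate 2, the median was -0.20.

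The composite element through which ATF4 acts has the letters TGATGNAA. It was found on either strand in 11 of 25 members with a RefSeq promoter and in 2.11% of the 9362 promoters. Of the 11, 4 fell and 1 rose. In the whole list 16 of 36 fell and 3 rose, against 10.4% and 6.94% of all genes. Whether members with the element changed more than the rest was not tested. In the 3 shown, on the gene's strand, the capitals mark the element or its reverse complement. They lie at chr2:152344031-152344054 (Trib3), chr2:119351041-119351064 (Chac1) and chr6:7693217-7693240 (Asns, which did not pass the test).
Trib3: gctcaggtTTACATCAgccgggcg
Chac1: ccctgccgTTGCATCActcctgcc
Asns: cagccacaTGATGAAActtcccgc

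Cholesterol synthesis genes were higher in D. All 23 members tested had a log2 change above 0, 12 rose, against 6.94% of all genes, and none fell, with a median of 0.28. Hmgcs1, an early enzyme of the pathway, was at 10823 and 11178 in U and at 13937, 13543 and 12755 in D. Dhcr7, which makes cholesterol from its last precursor, was at 2987 and 3467 in U and at 4038, 4918 and 4423 in D, and Mvk and Fdps rose by a log2 change of 0.50 and 0.51. Srebf2, which encodes the pathway's transcription factor, had a log2 change of 0.03 and did not pass the test. With the trend removed 16 rose and none fell. The median was 0.31 without U replicate 2.

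Among p53 targets, 7 of 20 rose and 1 fell, against 6.94% and 10.4% of all genes, and in 15 every D library lay above both U libraries (21.9% of all genes did so). Cdkn1a, the cyclin-dependent kinase inhibitor p21, was at 9602 and 9303 in U and at 12248, 12148 and 12829 in D, a log2 change of 0.39 (SE 0.07, adjusted p = 0.00412). Plk2 and Bbc3 rose by 0.44 and 0.62. Ccng1 was at 14156 and 14015 in U and at 16976, 17251 and 14515 in D and did not pass (adjusted p = 0.112), whereas Sesn2, which is also an ATF4 target, fell by 0.43. With the trend removed, 14 rose and 1 fell. The median was 0.25, and 0.27 without U replicate 2.

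The Nodal antagonists Lefty2 and Lefty1, which are also targets of Nodal signalling, fell. Lefty2 was at 905 and 745 in U and at 334, 331 and 306 in D (log2 change -1.34, SE 0.11, adjusted p = 3.52e-05), and Lefty1 at 466 and 402 in U and at 201, 219.9 and 230.3 in D (log2 change -0.99). Of 24 genes of Nodal and TGF-beta signalling, 6 fell and 3 rose, against 10.4% and 6.94% of all genes, or 8 and 2 with the trend removed. The feedback inhibitors Skil and Smad7 were among the falls, Tgfb1, Id1 and Id2 were the rises, and Nodal itself had a log2 change of 0.05. The median was -0.25, and -0.22 when U replicate 2 was left out.

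Of 22 pluripotency regulators tested, 6 fell (Dppa2, Klf5, Zfp42, Sox2, Prdm14 and Esrrb) and Dppa5a rose, against 10.4% and 6.94% of all genes. With the trend removed 10 fell and none rose, and the median was -0.14 against -0.10 before. Nanog and Pou5f1, without that correction, had log2 changes of 0.05 and 0.10. Zfp42, a marker of naive cells, was at 11470.4 and 12236 in U and at 7673, 8400 and 8153 in D. Of the DNA methylation genes, 6 of 14 fell and none rose, with or without the trend. Tet2, which oxidises methylcytosine, was at 3296 and 3914 in U and at 1550.4, 1697 and 1697 in D (log2 change -1.12, SE 0.15, adjusted p = 0.00125), or -0.84 with the trend removed. Tet1 fell by 0.55, and the methyltransferase genes Dnmt1, Dnmt3a and Dnmt3b and the cofactor Dnmt3l fell by 0.35, 0.37, 0.39 and 0.32. Without U replicate 2, the medians were -0.15 for the methylation list and -0.14 for the pluripotency regulators.

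CTCF and cohesin genes were lower in D, by an amount that depended on the length trend. Of 23 tested, 14 fell, against 10.4% of all genes, and none rose, with a median of -0.32. Rad21, the kleisin subunit of cohesin, was at 10089 and 10125 in U and at 7971, 8057 and 7062 in D, and Smc3, a subunit of its ring, at 10242 and 10633 in U and at 8417, 8351 and 6969 in D. With the length and GC trend removed, 6 fell, 1 rose and the median was -0.12. None passed the threshold without U replicate 2, with a median of -0.30. The median exon length in this list was 5733 bases.

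Rises of many members together were also seen in lists of short genes. All 87 cytosolic ribosomal protein genes and 86 of 91 nuclear genes for respiratory chain subunits had a log2 change above 0. Their medians were 0.60 and 0.55, against -0.02 over all genes, but 10 and 22 rose, against 6.94% of all genes. The summed level of the ribosomal protein genes ranged from 4.53% to 9.94% of a library, with U replicate 2 the lowest and D replicate 3 the highest. Atp5a1, a subunit of ATP synthase, was at 30839 and 32701 in U and at 39403, 42376 and 44750.2 in D. With the trend removed, 8 and 18 rose, against 7.38% of all genes, and the medians were 0.44 and 0.37. Without U replicate 2, they were 0.33 and 0.31, none of either list rose and 1 respiratory chain gene fell. Of 79 mitochondrial ribosomal protein genes, 10 rose and none fell (median 0.29), or 10 and 1 with the trend removed (median 0.19), and of 9 mitochondrially encoded genes 3 rose and none fell, or 2 and none. None of these 2 lists passed without U replicate 2. Of 12 mitochondrial chaperones and proteases, 1 rose and 1 fell in both.

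**Figure D4:**
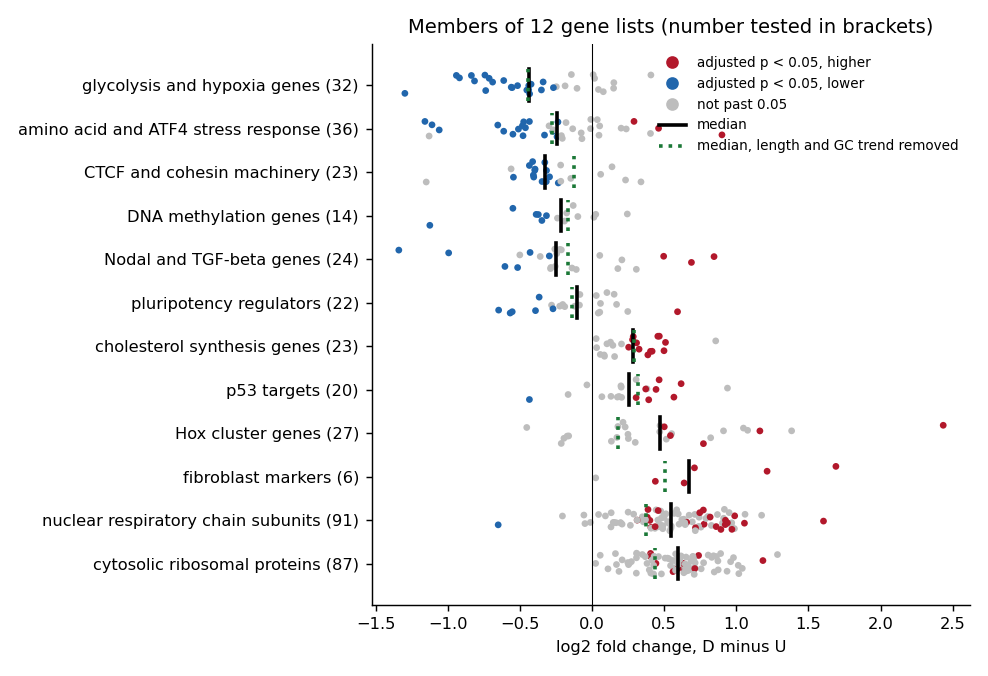
Log2 fold change from U to D (horizontal axis) of every tested member of 12 gene lists, with members that rose in red, those that fell in blue and the rest in grey. The black bar is the list median, which is -0.44 for glycolysis and hypoxia genes and 0.28 for cholesterol synthesis genes, and the dotted green bar is the median with the length and GC trend removed.

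The counts of the other lists are to be read against the 6.94% of all genes that rose and the 10.4% that fell. Those with the trend removed are to be read against 7.38% and 7.6%. Of 27 Hox cluster genes tested, 5 rose and none fell, or 2 and none with the trend removed. Primitive endoderm markers had 6 of 13 falling and none rising, the same counts as with the trend removed, and formative and primed markers had 4 of 10 falling and 1 rising, again the same. Of 24 immediate early genes 7 rose and 3 fell, or 4 and 5 with the trend removed, and their median turned from 0.14 to -0.14. Of 19 metallothionein and oxidative stress genes 5 rose and none fell, or 6 and 1 with the trend removed. Of 24 replication-dependent histone genes 4 rose and none fell, or 3 and none, with a median of 0.92 that was 0.61 with the trend removed. Of 18 interferon response genes 4 rose and 1 fell, or 6 and none. Cell cycle and replication genes had 2 of 37 rising and 8 falling, or none and 8, and MYC network genes none of 21 rising and 4 falling in both. Imprinted genes had 4 of 33 rising and 6 falling, or 5 and 5, and germline and meiosis genes 2 of 29 rising and 7 falling, or 1 and 4. Heat shock chaperones had 2 of 19 in each direction, or 2 rising and 4 falling, and WNT and ERK feedback targets 4 of 23 rising and 2 falling, or 2 and 3. Genes of the 2-cell embryo had 2 of 17 falling and none rising in both, and none of 9 clustered protocadherin genes passed in either. Of the markers of other lineages, 1 of 9 for mesoderm fell, 1 of 10 for trophectoderm rose and 1 fell, and 1 of 6 neural markers fell, or 2 with the trend removed.

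FLAG-CTCF sites of D were set beside the called genes, as a description. A site within 3 kb of an annotated start was found for 14 of 34 genes called higher (41.2%), 20 of 39 called lower (51.3%) and 38.8% of the 16306 tested genes with an annotated start. Within 1 kb the shares were 26.5%, 23.1% and 23.2%. Of all 37167 sites, 51.3% held the core of the CTCF motif (CC, any 3 bases, AG, any 2 bases, GGC) on either strand within 201 bases around the summit, against 3.52% of windows of that length moved by 5000 bases. The sites shown belong to genes named above or to Hsd11b2, which inactivates glucocorticoids and was at 31.9 and 30.9 in U and at 9.47, 13.8 and 13.03 in D. The core is in capitals, on the strand that carries it. The stretches lie at chr15:61983425-61983448 (Myc), chr10:78043544-78043567 (Aire), chr8:105515996-105516019 (Hsd11b2) and chr2:180107285-180107308 (Hrh3, the only one of the 4 called higher).
Myc: ctgtggCCAGTAGAGGGCacactt
Aire: cgtgggCCAGCAGGGGGCgccgag
Hsd11b2: tcaaccCCGAGAGTGGGCtgcatc
Hrh3: gtctggCCTATAGGGGGCacccat

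The site of Myc lay at -1881 bp from its nearest start, with a fold enrichment of 7.65 and 5.34 in the FLAG replicates, and that of Aire 12 bp downstream, with 11.4 and 5.88. Of the 24 genes called higher with a RefSeq promoter, 1 held a CArG box, the element of serum response factor (Acta1), against 1.26% of the 9362 promoters. That element lies within chr8:123894832-123894855, in capitals and on the gene's strand.
Acta1: ccgacacCCAAATATGGcttggga

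The change with Dox was also measured in cells with IAA, in libraries separate from those above. From IAA alone to IAA with Dox (3 libraries each), 33 of the 36 genes called higher had a log2 change above 0 (47.9% of all genes did so), and 16 of them rose and none fell, against 16.7% of genes that rose. Of the 40 genes called lower, 24 had a change below 0 and 16 above 0, where 47.9% of all genes were above 0. Of the 40, 17 fell and 6 rose, against 22.2% of all genes that fell and 16.7% that rose. The median change from IAA alone to IAA with Dox also moved with length. It was 0.23 in genes with up to 1 kb of exon and -0.24 in those over 6 kb, and these counts were not corrected for it. Bnip3 fell by 0.92 with IAA, and Duox1 and Apela, the ligand of the apelin receptor, rose by 1.94 and 1.13, and the differences from their changes without IAA, 0.19 and 0.03, did not pass (adjusted p = 0.797 and 0.96). Stc2 fell without IAA and rose by 0.59 with it, a difference of -1.65 (SE 0.10, adjusted p = 2.39e-06). Vldlr differed by -1.49 (adjusted p = 0.000205) and Acta2 by 1.42 (adjusted p = 0.00544). Stc2, Vldlr and Acta2 were picked for their change from U to D, which enters these differences. With IAA alone, Stc2 and Vldlr were at 596 ± 18.7 and 173 ± 17.3 (SD, n = 3), below U (1855 and 1902 for Stc2, 410.5 and 463 for Vldlr). With IAA and Dox, Stc2 was at 934, 900 and 860, beside 902, 868 and 932 in D. Vldlr was at 230, 215 and 233 with both, beside 183, 236 and 189 in D. The levels with Dox were thus close, and those without Dox were not. The median of the ATF4 list was 0.76 from IAA alone to IAA with Dox, against -0.24 without IAA.

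The drug was also given to lines with another transgene at Tigre, CTCFL or the chimeras LCL and CLC, each with libraries of its own. In the LCL line (2 libraries of U and 2 of D), 24 of the 27 genes called higher and tested there had a change above 0. Over all genes 52.3% did so. Of the 27, 15 rose, against 11% of all genes. In the CLC line (2 and 2), 23 of 27 were above 0 (48.1% of all genes) and 11 rose, against 4.82%. In the CTCFL line (3 and 3), 27 of 33 were above 0 (49.8% of all genes). There 13 rose and 2 fell, against 17.6% and 18.6% of all genes. Of the genes called lower, 14 of 33 fell in the LCL line (10.7% of all genes), 6 of 34 in the CLC line (5.67%) and 24 of 37 in the CTCFL line (18.6%). In CLC the median change with Dox was 0.28 in genes with up to 1 kb of exon and -0.10 in those over 6 kb. The same medians were -0.01 and -0.06 in LCL and 0.02 and 0.01 in CTCFL. The counts in these lines were not corrected for length. Rapgef4 rose in each, by a log2 change of 5.16 in LCL, 4.75 in CLC and 2.74 in CTCFL, and Tagln by 2.21, 2.62 and 0.69. In U, Rapgef4 was near the floor in LCL (1.14 and 4.32) and CLC (5.91 and 2.37), and at 25.6, 26.7 and 20.9 in CTCFL. With Dox it was at 108 and 132 in LCL, 145 and 115 in CLC, and 140, 171 and 195 in CTCFL. In D of the CTCF line it was at 172, 173 and 156. With IAA, Rapgef4 in LCL was at 1.75 and 4.04 without Dox and at 94.2 and 77.7 with it. In CLC with IAA it was at 11.6 and 5.32 without Dox and at 102 and 133 with it. In CTCFL with IAA it was at 16.8, 9.98 and 6.34 without Dox and at 31.7 and 20.1 with it. From U to D, A2m fell in LCL, CLC and CTCFL, by 1.53, 0.82 and 1.99. Myc fell in LCL and CLC by 1.84 and 2.23 but rose by 0.85 in CTCFL, a difference from the CTCF line of -2.21 (adjusted p = 8.3e-06).

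**Figure D5:**
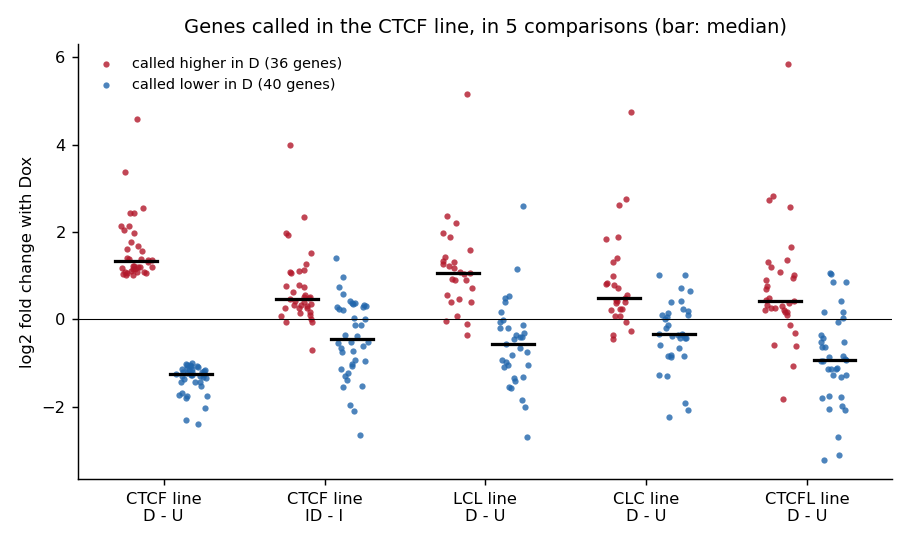
Log2 fold change with Dox (vertical axis) of the genes called higher (red) and lower (blue) in the CTCF line, in that line without and with IAA and in the LCL, CLC and CTCFL lines, with bars for medians. The values at the left chose the genes, and the medians of the red genes elsewhere lie between 0.42 and 1.06.

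The glycolysis and hypoxia list had medians of -0.44 in LCL, -0.27 in CLC and -0.30 in CTCFL, all below 0 as in the CTCF line. Cholesterol synthesis genes, with 0.28 in the CTCF line, had -0.16, -0.14 and -0.01, and the ATF4 list, with -0.24, had 0.17, 0.24 and -0.02. Vldlr was tested for the difference and was lower in the CTCF line by 1.28 against LCL (adjusted p = 0.00298), 2.12 against CLC (adjusted p = 9.91e-06) and 1.14 against CTCFL (adjusted p = 0.00122). Over all genes, 1.03%, 0.837% and 3.5% were called for these 3 differences. For lists the difference was not tested.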

How the data were processed

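RNA was sequenced as polyA-selected, strand-specific libraries. Per the labels and the methods, the authors aligned reads with STAR to GRCm38/mm10; the submitters' processing notes also name Trim Galore 0.4.4, SAMtools 1.3 and HTSeq. The deposited signal is gene counts divided by 1 size factor per library. Whole reads were recovered in 36 of 38 libraries (tolerance 0.1 read, values up to 500 reads). FLAG ChIP-seq peaks were deposited by the authors per replicate (42034 and 75509), with fold enrichment as a ratio and a -log10 q; sites in both replicates were merged.

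Genes with a mean of at least 10 over the 11 CTCF-line libraries were tested with limma 3.58.1 (R 4.3.3) on log2(value + 1) in 1 fit, with Benjamini-Hochberg adjustment over all genes, so fold changes of low genes are understated. Changes in other lines and their differences came from fits of their own libraries and of all 38. edgeR 4.0.16 and DESeq2 1.42.0 on recovered reads were alternatives. On simulated counts of 16602 genes, 99% of 3-fold and 100% of 6-fold changes were recovered with 2 false calls. These shares hold for the simulated counts only. In the real libraries the 76 calls became 28 with the replicate number as a block and 32 without D replicate 3. Named genes were the 15 largest called rises and falls without overlap, called or highest list members, and Ctcf and Ctcfl; other members were named after their values were seen. Members and lists were chosen with earlier results of these data known. 1 gene is not reported here.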

Additional observations from a re-analysis of the deposited data

Results flagged for a closer look

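Several genes called in the CTCF line changed with Dox by a different amount with IAA, by the test of the difference itself (limma, adjusted p under 0.01, log2 difference above 1). The change without IAA minus that with IAA was 2.99 for Rapgef4, 2.82 for Rnf222, 1.42 for Acta2 and 1.07 for Trim54. It was -2.72 for Hsd11b2, -2.54 for Thbd, -1.65 for Stc2, -1.57 for Atp12a and -1.49 for Vldlr. It was -1.19 for Aldh1l2, -1.12 for Mobp and -1.06 for Zfp518b.

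Other genes changed by a different amount in another line, by the same test. The change in the CTCF line minus that in the CTCFL line was -3.43 for C430049B03Rik, 2.48 for Gamt, -2.21 for Myc, -1.14 for Vldlr and -1.06 for Tet2. Against the LCL line it was -4.03 for Igf2os, -2.47 for Hsd11b2, -1.72 for Atp12a, -1.28 for Vldlr, -1.12 for Mobp and 1.35 for Lefty2. Against the CLC line it was -2.34 for Hsd11b2, -2.12 for Vldlr, -1.77 for Stc2, -1.62 for Atp12a and -1.37 for Adamts9. These tests share the U and D libraries of the CTCF line, by which the genes were also picked, and such picking favours large differences. Some rest on low counts in the other line. In LCL, Igf2os was at 0 and 1.23 in U and at 6.71 and 9.71 in D. In CTCFL, C430049B03Rik was at 8.08, 3.95 and 39.5 in U and at 39.5, 30.7 and 11.2 in D. Gamt was there at 42.4, 38.4 and 7.49 in D, all below U, and 7.49 came from a library of 6847072 reads. Whether these differences hold without single libraries of the other lines was not tested. A Dixon test for outlying libraries was not run on single genes, since the groups held 2 or 3 libraries.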

How the results depend on the processing

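The count of 76 called genes depended on single libraries. It lay between 12 (without U replicate 2) and 70 when 1 library was left out, with 35 without D replicate 1 and 32 without D replicate 3; genes called higher ranged from 3 to 35 and lower from 9 to 35. DESeq2 called 57 higher, no filter on low values left 23 higher, and an adjusted p under 0.05 without a fold limit gave 2891. With the replicate number as a block, 28 were called (13 higher, 15 lower). Deviations of same-numbered U and D libraries correlated at 0.0104 and 0.137 for replicates 1 and 2. With other-numbered D libraries, those of U correlated at -0.137 to 0.119 and at -0.119 to -0.0104. The deviations of 2 U libraries mirror each other, so these values cannot show whether libraries were paired. The difference from Dox with IAA (457 genes) ranged from 336 to 511, that from the CTCFL line (576) from 338 to 628, from LCL (169) from 101 to 164, with 255 in DESeq2, and from CLC (138) from 67 to 123; the lowest of the last 3 were without U replicate 2. Shares of starts with a FLAG site moved to 61.8% for genes called higher with ChIP replicate 2 alone, to 23.1% for those called lower within 1 kb, and over all genes to 23.2% (1 kb), 36.1% (-log10 q of at least 5), 39.8% (replicate 1) and 53.5% (replicate 2). Of 1990 values of 135 named genes, 405 lost and 1 gained significance and 0 changed sign; the cause was not tested. The length and GC correction was chosen after the data were seen. With 2 U libraries, small changes were at the limit of these data.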

Other observations

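Gm10086, an unnamed gene model, was at 4936 in D replicate 1 and at 22.3 and 15.2 in the other D libraries, against 8.51 and 13.3 in U.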
